A study of Mus musculus with 4 samples.

Results

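Toll-like receptors are membrane proteins by which cells sense conserved parts of microbes and products of damaged cells. Some sit on the cell surface and bind lipids and proteins, whereas others sit in endosomes and bind nucleic acids. Most signal through the adaptor MYD88, TLR3 through TICAM1 instead, and TLR4 through both. These adaptors lead to the NF-kB and interferon regulatory factors that switch on cytokine genes. In fat depots these receptors are best known from macrophages, and adipocytes carry some of them as well.

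The 10 receptor genes described here, Tlr1 to Tlr9 and Tlr13, were taken by symbol from 55387 rows of gene values in brown adipose tissue (BAT), and every one of them was listed in all 4 libraries. RNA sequencing was performed on BAT of 4 male C57BL/6 mice aged 15 weeks, with 1 library per mouse. There were 2 Sox4f/f mice, whose genotype is labelled WT, and 2 littermates labelled Sox4-MKO, which carry the same floxed Sox4 alleles together with a Cre recombinase driven by Myf5. Myf5-driven Cre acts in the precursors that brown adipocytes share with skeletal muscle, and is not a macrophage driver. The comparison asks how loss of the transcription factor SOX4 in that lineage changes the genes transcribed in BAT. Values are FPKM, sequenced fragments scaled to transcript length and library depth, a scale on which levels of different genes can be set side by side.

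The libraries held an estimated 12100000 to 16200000 fragments. Sox4 itself did not follow the labels. It read 1.98 and 1.06 FPKM in the Sox4f/f mice and 0.981 and 3.06 FPKM in the mice labelled Sox4-MKO, so the genotypes overlapped (log2 fold change 0.20, SE 0.43, limma, Benjamini-Hochberg adjusted p = 0.843). Whether the fragments counted for Sox4 fall inside the floxed part cannot be read from a value per gene. Skeletal muscle markers summed to 161 and 599 FPKM in the Sox4f/f mice and to 11743 and 2065 FPKM in the mice labelled Sox4-MKO, the first of which stood apart from the other 3. The labels give the cell type as adipocytes, but the tissue was sequenced whole, and the macrophage genes Lyz2, C1qa and C1qb were read in every library. In such bulk tissue, more cells of a type and more RNA per cell cannot be told apart.

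Tlr1 and Tlr6 are shown first by sequence, because a stretch that they share limits what their values mean. They are neighbours on the minus strand of chromosome 5, Tlr1 at chr5:64924679-64933563 and Tlr6 at chr5:64952031-64960097 (GRCm38, GENCODE M21). The longest run that the longest coding transcripts of Tlr1 and Tlr6 have in common is 229 bases of coding sequence, at chr5:64925537-64925765 in exon 4 of Tlr1 and at chr5:64953828-64954056 in exon 2 of Tlr6. It is given 5′ to 3′ on the minus strand, and every letter of it is the same in both genes.
Tlr1 and Tlr6: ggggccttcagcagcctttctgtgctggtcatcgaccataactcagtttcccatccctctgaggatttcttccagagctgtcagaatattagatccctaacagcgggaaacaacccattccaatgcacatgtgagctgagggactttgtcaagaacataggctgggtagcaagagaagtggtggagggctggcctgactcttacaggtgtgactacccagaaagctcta
Of all 100-base windows, 8.85% of those in Tlr1 and 7.24% of those in Tlr6 were found in the other gene, and of 50-base windows 15.3% and 12.5%. No other pair among the 45 pairs of receptors shared a window of either length. Fragments from the shared stretch cannot be assigned to 1 of the 2 genes by sequence, and how they were divided is not given in the sources used here, so the separate values of Tlr1 and Tlr6 are uncertain.

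Promoters of 8 of the 10 genes were found in the RefSeq table (GRCm38.p6), with Tlr4 and Tlr7 not among them. The hexamer GAGGAA, a core recognised by the myeloid factor PU.1, was searched on both strands of the 250 bases before each start and occurred in 4 of the 10 listed promoters, those of Tlr1, Tlr8, Tlr9 and Tlr13, against 23.3% of 32851 promoters. ACAAAG, a core recognised by SOX factors, occurred in 3 of 10 (Tlr3, Tlr6 and Tlr9) against 16.5%, and TATAAA in 2 of 10 (Tlr6 and Tlr8) against 12.4%. These are matches of letters, not binding sites. The 120 bases before the start are shown for Tlr1 (1 of its 2 listed starts) and Tlr9, whose values separated the genotypes, and for Tlr8, whose values did not. They run 5′ to 3′ in the direction of transcription, at chr5:64933559-64933678 on the minus strand, chr9:106222478-106222597 on the plus strand and chrX:167264330-167264449 on the minus strand, and capitals mark the hexamer, which in Tlr8 lies on the opposite strand.
Tlr1: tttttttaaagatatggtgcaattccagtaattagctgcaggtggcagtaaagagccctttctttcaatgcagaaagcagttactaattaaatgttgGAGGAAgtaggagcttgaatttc
Tlr9: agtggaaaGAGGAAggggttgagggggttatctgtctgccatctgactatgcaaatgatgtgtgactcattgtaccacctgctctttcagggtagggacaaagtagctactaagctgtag
Tlr8: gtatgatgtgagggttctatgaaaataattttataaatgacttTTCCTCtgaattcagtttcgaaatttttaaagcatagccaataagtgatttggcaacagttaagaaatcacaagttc
Their hexamers begin 23 bases before the start of Tlr1, 112 bases before that of Tlr9 and 77 bases before that of Tlr8.

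Receptor mRNA was low in BAT, and it was higher in the mice labelled Sox4-MKO for 7 of the 10 genes in the sense that both of them lay above both Sox4f/f mice. These were Tlr1, Tlr2, Tlr4, Tlr5, Tlr7, Tlr9 and Tlr13. Tlr3, Tlr6 and Tlr8 overlapped, and none was lower without overlap. Of the 22285 rows above 0 in at least 1 library, 19.7% were higher without overlap, and of the 5917 rows with a mean FPKM in the range of the receptors 28.3%. Summed over the 10 genes, the level was 14.7 and 15.7 FPKM in the Sox4f/f mice and 20.7 and 22.4 FPKM in the mice labelled Sox4-MKO. With 2 mice per genotype the smallest exact two-sided permutation p for any such value is 0.333.

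**Figure D1:**
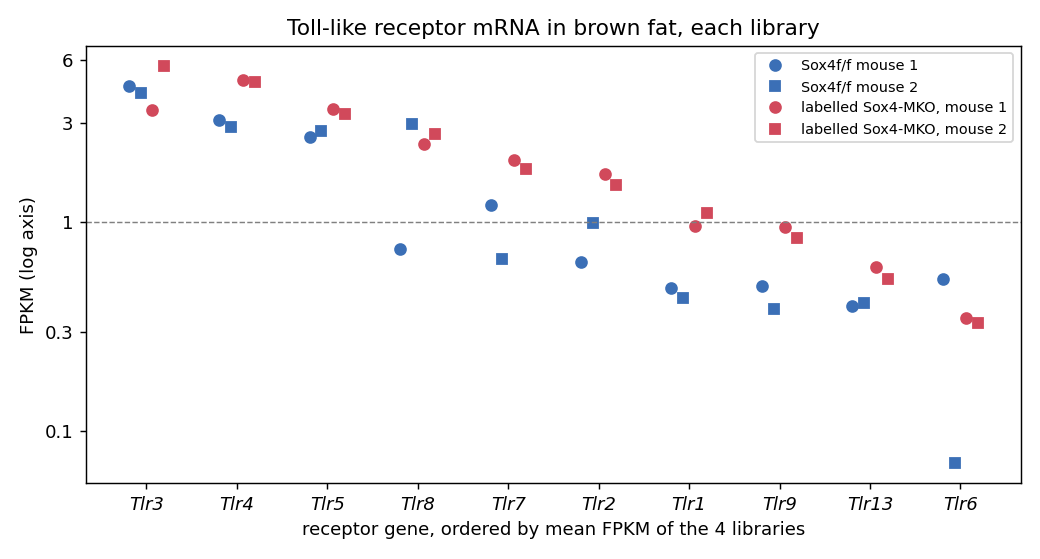
FPKM on a log axis of the 10 receptor genes in each of the 4 libraries, with Sox4f/f in blue, mice labelled Sox4-MKO in red and a dashed line at 1 FPKM. Tlr3 and Tlr4 are the highest by mean, Tlr6 has 1 Sox4f/f mouse at 0.0702 FPKM, and 1 Sox4f/f mouse of Tlr8 at 0.746 FPKM lies below the other 3.

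By mean level the order ran Tlr3, Tlr4, Tlr5, Tlr8, Tlr7, Tlr2, Tlr1, Tlr9, Tlr13 and Tlr6, from 4.43 FPKM for Tlr3 to 0.320 FPKM for Tlr6. The ranges of every pair of neighbours in this order overlapped. Tlr3 came first by the mean of the Sox4f/f mice (4.33 FPKM against 2.98 FPKM for Tlr4), whereas Tlr4 did by that of the mice labelled Sox4-MKO (4.78 FPKM against 4.54 FPKM for Tlr3). Tlr4 was above Tlr5, and Tlr2 above Tlr1, in 4 of 4 libraries, and each of the other neighbours kept the order in 3 of 4.

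Of the surface receptors, Tlr4, the receptor for bacterial lipopolysaccharide, was the highest. It lies at chr4:66827584-66930284 on the plus strand. Tlr4 read 3.09 and 2.87 FPKM in the Sox4f/f mice and 4.83 and 4.72 FPKM in the mice labelled Sox4-MKO, from an estimated 142 to 313 fragments. The 2 genotypes were each tight and well apart. The mean was 2.98 FPKM against 4.78 FPKM, a ratio of 1.60, with a log2 fold change of 0.54 on log2(FPKM + 1) (SE 0.17, unadjusted p = 0.0260, limma with Benjamini-Hochberg adjusted p = 0.254). It was the 1 receptor with an unadjusted p under 0.05 among the 12877 genes whose mean passed 1 FPKM in either genotype, of which 7.95% were called higher at that threshold. Its estimate stayed between 0.50 and 0.58 when each library was left out in turn, with p between 0.0676 and 0.111.

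Tlr2 encodes the receptor that binds bacterial lipopeptides together with TLR1 or TLR6. It lies at chr3:83836272-83841767 on the minus strand. Tlr2 read 0.649 and 0.991 FPKM in the Sox4f/f mice and 1.70 and 1.51 FPKM in the mice labelled Sox4-MKO. The genotypes did not overlap, and the ratio of means was 1.96 with a log2 fold change of 0.52 (SE 0.24, unadjusted p = 0.0847, limma with Benjamini-Hochberg adjusted p = 0.362). Tlr1, its partner for triacylated lipopeptides, read 0.484 and 0.433 FPKM against 0.959 and 1.11 FPKM, from an estimated 16 to 54 fragments. Its ratio of means was 2.25 and its log2 fold change was 0.48 (SE 0.24, unadjusted p = 0.111, limma with Benjamini-Hochberg adjusted p = 0.400).

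Tlr6, the partner of TLR2 for diacylated lipopeptides, was the lowest of the 10. It read 0.534 and 0.0702 FPKM in the Sox4f/f mice and 0.349 and 0.328 FPKM in the mice labelled Sox4-MKO. The value of 0.0702 FPKM rests on about 3 fragments, with a 95% Poisson interval of 0.0151 to 0.201 FPKM that covers counting error only. Since Tlr1 and Tlr6 share sequence, their sum was also taken. It was 1.02 and 0.504 FPKM against 1.31 and 1.44 FPKM, a ratio of means of 1.80, and separated the genotypes, although the lower Sox4f/f value came from the library with the few Tlr6 fragments.

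Tlr5, the receptor for bacterial flagellin, lies at chr1:182954788-182976044 on the plus strand. Tlr5 read 2.56 and 2.73 FPKM in the Sox4f/f mice and 3.48 and 3.31 FPKM in the mice labelled Sox4-MKO. The gap between the genotypes was narrow but wider than either pair. The ratio of means was 1.28 and the log2 fold change 0.27 (SE 0.18, unadjusted p = 0.192, limma with Benjamini-Hochberg adjusted p = 0.492).

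Among the endosomal receptors, Tlr3, which binds double-stranded RNA, had the highest mean over the 4 libraries and did not separate the genotypes. It lies at chr8:45395665-45411080 on the minus strand and overlaps the antisense gene Gm45542. Tlr3 read 4.51 and 4.15 FPKM in the Sox4f/f mice and 3.45 and 5.62 FPKM in the mice labelled Sox4-MKO, which held both the lowest and the highest value. The log2 fold change was 0.03 (SE 0.25, limma with Benjamini-Hochberg adjusted p = 0.966). Over the 4 libraries, the 3 tested genes whose log2(FPKM + 1) followed Tlr3 most closely were Tm4sf1, Ccar1 and Ginm1 (Pearson r from 0.9993 to 0.9997), out of 147 genes with a Pearson correlation above 0.95. With 4 points from shared libraries this only describes the order of the values.

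Tlr7, a receptor for single-stranded RNA, and Tlr8 are neighbours on the X chromosome, at chrX:167304929-167330558 and chrX:167242696-167264329 on the minus strand. Tlr7 read 1.21 and 0.665 FPKM in the Sox4f/f mice and 1.98 and 1.81 FPKM in the mice labelled Sox4-MKO. These did not overlap, with a ratio of means of 2.02. On log2(FPKM + 1) Tlr7 had the largest log2 fold change of the 10 receptors, 0.59 (SE 0.25, unadjusted p = 0.0697, limma with Benjamini-Hochberg adjusted p = 0.340). By ratio of means Tlr1 (2.25) and Tlr9 (2.03) lay above it. Tlr8 read 0.746 and 2.97 FPKM in the Sox4f/f mice and 2.37 and 2.66 FPKM in the mice labelled Sox4-MKO, so the Sox4f/f mice lay on either side of the others. An estimated 34 fragments stood behind the value of Sox4f/f mouse 1 and 123 behind that of mouse 2. The log2 fold change of Tlr8 was 0.42 (SE 0.44, limma with Benjamini-Hochberg adjusted p = 0.659). It was -0.18 without Sox4f/f mouse 1 and 1.01 without Sox4f/f mouse 2.

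Tlr9, which binds unmethylated CpG DNA, and Tlr13, which binds bacterial ribosomal RNA, both averaged under 1 FPKM in each genotype. Tlr9 lies at chr9:106222598-106226883 and Tlr13 at chrX:106143204-106160493, both on the plus strand. Tlr9 read 0.493 and 0.385 FPKM in the Sox4f/f mice and 0.948 and 0.837 FPKM in the mice labelled Sox4-MKO, a ratio of means of 2.03. Tlr13 read 0.398 and 0.412 FPKM against 0.614 and 0.533 FPKM, a ratio of 1.42. Both separated the genotypes at depths of 16 to 47 and 20 to 35 estimated fragments.

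A fit of all 22285 rows with no FPKM limit covered all 10 receptors. Every receptor had a log2 fold change above 0, although those of Tlr3 (0.03) and Tlr6 (0.06) were close to 0. The median was 0.41 against -0.0003 for all rows. Of the 22285 rows only 18336 averaged above 0.1 FPKM in either genotype. Rows near 0 FPKM change little on this scale, so the 2 medians are not matched for level. The log2 fold changes of Tlr1 (unadjusted p = 0.0304) and Tlr9 (0.40, SE 0.14, unadjusted p = 0.0475) passed an unadjusted p under 0.05 in limma. Of all rows, 5.9% were called higher. Tlr4 missed that threshold there (unadjusted p = 0.0514), and so did Tlr6 (0.06, SE 0.20) and Tlr13 (0.16, SE 0.12). None of the 10 passed after Benjamini-Hochberg adjustment in limma with or without the limit, and neither did any other gene tested, where the smallest adjusted p was 0.191. The log2 scale of FPKM + 1 understates changes of genes this low. The study displayed Tlr1, Tlr4 and Tlr9 among other receptors from these same libraries, so their direction is not independent evidence. The study also measured inflammation genes by qPCR in BAT of younger mice, which was not analysed here.

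**Figure D2:**
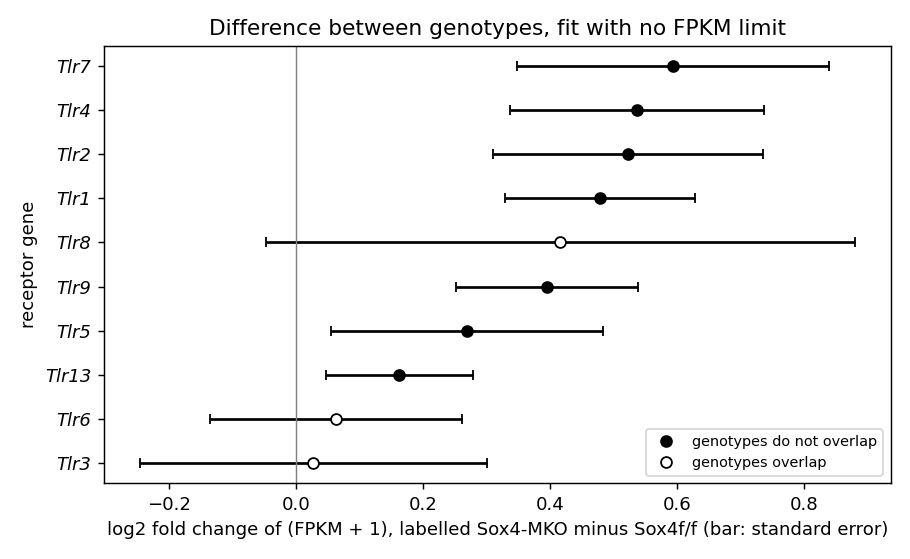
Log2 fold change of FPKM + 1 between mice labelled Sox4-MKO and Sox4f/f for the 10 receptors, from the limma fit with no FPKM limit, with bars of 1 standard error. Filled points mark the 7 genes whose genotypes did not overlap, from 0.16 for Tlr13 to 0.59 for Tlr7, and open points the 3 that overlapped.

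Without 1 library, the number of receptors higher without overlap was 8 of 10 without either Sox4f/f mouse, 8 without mouse 1 labelled Sox4-MKO, which had the highest muscle markers, and 7 without mouse 2. Leaving out a library cannot undo a separation, so this count could not fall below the 7 seen with all 4 libraries. The share of all rows higher without overlap, which cannot fall either, was 29.9%, 29.0%, 31.5% and 39.2% in the same order of libraries.

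Genes for proteins that hand ligands to the receptors or move the receptors to endosomes held a few calls. Of 11 such genes, 10 were tested. At an unadjusted p under 0.05 in limma, 2 rose and none fell, where 7.95% of all genes tested were called higher. Without overlap 6 were higher, where 19.7% of all rows above 0 in at least 1 library were. The median log2 fold change was 0.20 against -0.05 for all genes tested. Lbp, the secreted protein that hands lipopolysaccharide to CD14, read 1.77 and 1.38 FPKM against 3.81 and 4.17 FPKM and rose by 0.96 on the log2 scale (SE 0.20, unadjusted p = 0.00585, limma with Benjamini-Hochberg adjusted p = 0.210). Cd14, the co-receptor of TLR4, read 7.17 and 6.07 FPKM against 10.5 and 11.5 FPKM and rose by 0.65 (SE 0.16, unadjusted p = 0.0106, limma with Benjamini-Hochberg adjusted p = 0.216). Ly86 had a log2 fold change of 0.59 and Unc93b1, the chaperone of the endosomal receptors, one of 0.35, and neither passed.

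The signalling genes downstream were divided. Of 21 adaptors and kinases, 19 were tested and 1 passed, Ticam1, which fell by 0.59 on the log2 scale, from 9.0 and 6.9 FPKM to 4.89 and 4.93 FPKM (SE 0.18, unadjusted p = 0.0267, limma with Benjamini-Hochberg adjusted p = 0.254). Ikbke, Tab1 and Irak2 had log2 fold changes of 0.54, 0.52 and -0.32 and did not pass. Of the 9 transcription factors, all tested, 3 fell and none rose, where 8.28% of all genes tested were called lower. Rela, the main activating subunit of NF-kB, fell from 22.5 and 23.8 FPKM to 15.8 and 14.9 FPKM, Irf3 from 48.8 and 51.4 FPKM to 31.2 and 40.1 FPKM, and Nfkb2 from 9.29 and 9.48 FPKM to 6.68 and 6.35 FPKM. Their unadjusted p-values were 0.00790, 0.0322 and 0.0239 and their Benjamini-Hochberg adjusted p-values in limma 0.214, 0.267 and 0.247. Irf5, a myeloid interferon regulatory factor, had 2.05 and 1.98 FPKM against 5.53 and 2.96 FPKM, with a log2 fold change of 0.75 that did not pass (unadjusted p = 0.0551).

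Inhibitors of the pathway showed no call among the 8 tested of 9, with a median log2 fold change of 0.07. Il1rl1, Sigirr, Tnfaip3 and Cyld had 0.56, -0.41, 0.28 and 0.23. Of 18 genes that receptor signalling is known to induce, only 5 passed the limit, 9 were listed at 0 in at least 1 library and Ifnb1 in all 4. Saa3, an acute phase protein, was the 1 called among those 5, being listed at 0 in both Sox4f/f mice and at 1.11 and 1.28 FPKM in the mice labelled Sox4-MKO (unadjusted p = 0.00864, limma with Benjamini-Hochberg adjusted p = 0.214). Saa3 passed the limit only through the mice labelled Sox4-MKO, and genes that were low in Sox4f/f and lower still in those mice could not enter that fit. Over all 18, 3 were higher and 2 lower without overlap, where 19.7% of all rows above 0 in at least 1 library were higher. The 3 higher genes are near that share. The share of all rows that were lower without overlap was not taken, so the count of 2 has no background here. The 2 lower ones were the chemokine genes Ccl3, at 0.404 and 0.310 FPKM in Sox4f/f, and Cxcl2, at 0.174 and 0.190 FPKM. Both were listed at 0 in the mice labelled Sox4-MKO. In the limma fit with no limit both passed an unadjusted p under 0.05 (unadjusted p = 0.00299 and unadjusted p = 0.00887), as did 1258 lower rows of all 22285. Values this near the floor, with 0 in both mice of a genotype, show almost no spread, so these p-values carry little weight. Ccl3 and Cxcl2 are named after their values were seen. Nos2, Ccl2 and Cxcl10 had log2 fold changes of -0.28, -0.19 and -0.06 with overlapping genotypes, and the median of the 5 was -0.06. The remaining mouse receptors were near 0, Tlr11 at 0.131 to 0.295 FPKM and Tlr12 at 0 to 0.156 FPKM.

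Macrophages carry many of these receptors, and their markers were higher in the same mice. Among all genes tested 7.95% were called higher, and 19.7% of all rows above 0 were higher without overlap. Of 12 macrophage markers, 9 rose and none fell, 11 were higher without overlap, and the median log2 fold change was 0.77. Their sum was 225 and 328 FPKM in the Sox4f/f mice and 472 and 452 FPKM in the mice labelled Sox4-MKO, and none was at 0 in any library. Cd163, a scavenger receptor, rose by 1.31 (SE 0.31, adjusted p = 0.214), Mrc1, the mannose receptor, by 1.15 (SE 0.23, adjusted p = 0.207), Itgam by 0.87 (SE 0.26, adjusted p = 0.244) and Cd68 by 0.86 (SE 0.30, adjusted p = 0.279) on the log2 scale, by limma with Benjamini-Hochberg adjustment. The leukocyte marker Ptprc read 4.46 and 4.47 FPKM against 6.82 and 7.87 FPKM. The part that these markers play in the receptor values was not tested.

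Markers of other cell types gave mixed values, where 7.95% of all genes tested were called higher and 8.28% lower, and 19.7% of rows were higher without overlap. Mast cell markers rose for 4 of 5 genes, with sums of 13.7 and 16.0 FPKM against 47.4 and 41.9 FPKM and a median log2 fold change of 1.47, led by Cma1 (1.93), Mcpt4 (1.62), Cpa3 (1.47) and Tpsb2 (1.28). Fibroblast and progenitor markers rose for 5 of 5, with sums of 199 and 244 FPKM against 462 and 432 FPKM. Neutrophil markers summed to 3.03 and 3.50 FPKM against 5.96 and 12.0 FPKM, but the defining gene Ly6g was listed at 0 in all 4 libraries. Of 6 dendritic cell markers, 4 were higher and 1 was lower without overlap, and no share of all rows was taken for the lower direction. Most of the 6 were under the FPKM limit. Only 2 were tested, and Zbtb46 fell by 0.55 (unadjusted p = 0.0205, limma) while Cd209a had 0.77 and did not pass. Zbtb46 read 9.46 and 10.6 FPKM against 6.02 and 7.03 FPKM, whereas the untested markers read under 1 FPKM in every library. Which cells the Zbtb46 values come from was not tested. B cell markers summed to 0.469 to 2.39 FPKM and T and NK cell markers to 3.10 to 6.68 FPKM, both with overlapping genotypes. Endothelial markers gave no call among 5 (median -0.24) and general adipocyte markers 1 of 4, Lep, which rose by 1.36. Brown adipocyte markers fell for 4 of 6, with sums of 7098 and 6911 FPKM against 3417 and 4166 FPKM and a median of -0.96. What part any of these lists plays in the receptor values was not tested.

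**Figure D3:**
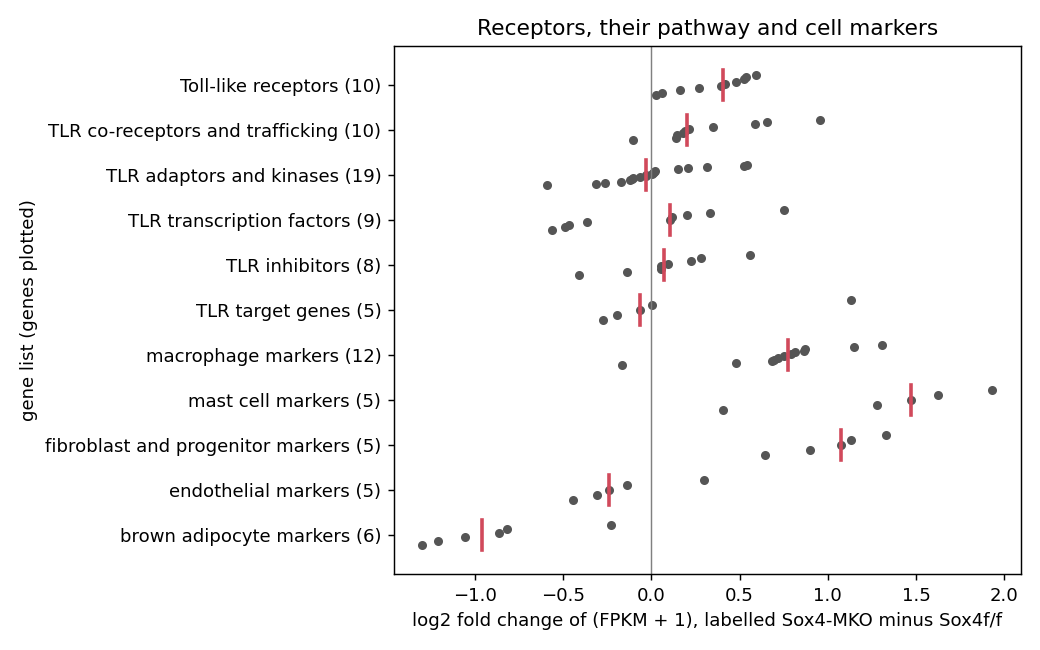
Log2 fold change of FPKM + 1 between mice labelled Sox4-MKO and Sox4f/f for the genes of 11 lists, 1 point per gene with the list's median as a red bar, for all 10 receptors and otherwise for the tested genes. The receptors have a median of 0.41, macrophage markers 0.77, mast cell markers 1.47 and brown adipocyte markers -0.96, while the signalling lists lie on both sides of 0.

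Set against the mean of the 12 macrophage markers within each library, on the scale of log2(FPKM + 1), none of the 6 receptors with a mean above 1 FPKM was higher on average in the mice labelled Sox4-MKO. The relative level of Tlr3 was -0.90 and -1.37 in the Sox4f/f mice and -2.24 and -1.46 in the mice labelled Sox4-MKO, a difference of -0.72 with no overlap. Tlr5 differed by -0.48 and Tlr2 by -0.22, also without overlap. Tlr4, Tlr7 and Tlr8 overlapped, with differences of -0.21, -0.15 and -0.33. The exact two-sided permutation p was 0.333 for the 3 receptors without overlap, the smallest it can be. The scale understates changes of low genes more than those of the higher marker genes, and with 0.1 in place of 1 added to FPKM the differences of Tlr2 and Tlr7 were above 0, at 0.06 and 0.14.

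**Figure D4:**
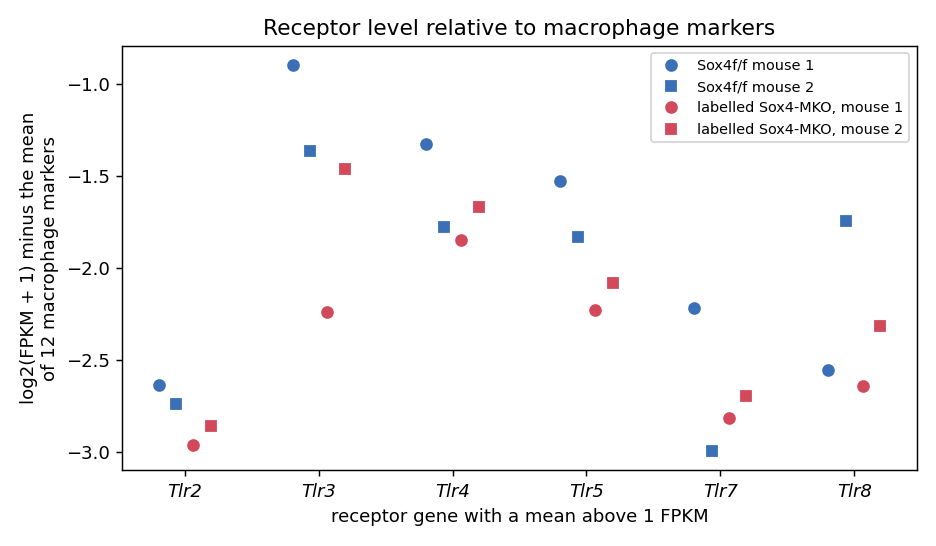
Level of 6 receptors relative to macrophage markers, as log2(FPKM + 1) minus the mean log2(FPKM + 1) of 12 markers in the same library, with Sox4f/f in blue and mice labelled Sox4-MKO in red. Tlr2, Tlr3 and Tlr5 lie lower in both mice labelled Sox4-MKO, and Tlr4, Tlr7 and Tlr8 overlap.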

How the data were processed

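RNA sequencing of BAT from 4 mice was used, with genotypes and mouse numbers from the labels. The authors deposited FPKM per gene and library, without counts, so no count test was made. The submitters' processing notes name Cufflinks 2.1.1, Cuffdiff and the build mm10. The aligner and annotation are not given in the sources used here. The labels describe a column RNA extraction and a stranded mRNA kit, the methods TRIzol and TruSeq.

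limma 3.58.1 in R 4.3.3 was fitted to log2(FPKM + 1) of all genes whose mean FPKM was above 1 in either genotype, as in the study's methods, with genotype as the only term and a trended prior. p-values are two-sided, with Benjamini-Hochberg adjustment over all 12877 genes. The code was tested on simulated data. Members under the limit are given from a fit without it. Of the 10 receptors 7 passed, Tlr1, Tlr2 and Tlr7 through the Sox4-MKO mean only. Depth was estimated from the smallest value steps of genes with 1 annotated transcript, and intervals cover counting error only. Transcripts and positions are from GENCODE M21, matched by symbol, and promoters from RefSeq.

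Named are all 10 receptors, Sox4, up to 4 tested genes of each described list with the largest absolute log2 fold change, and the 3 genes most correlated with Tlr3. Lyz2, C1qa, C1qb, Ptprc, Ly6g, Ifnb1, Tlr11 and Tlr12 are named as list members. Members and lists were chosen with earlier results of these data known. Alternatives were pseudocount, FPKM limit, no trended prior, quantile normalization, scaling to a common median, scaling without Ucp1 and mitochondrially encoded genes, a replicate block and leaving out each library. No limit with a pseudocount of 0.1 was added after seeing the data. Figures used matplotlib 3.10.9. The ChIP sequencing and qPCR of the study were not analysed here.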

Additional observations from a re-analysis of the deposited data

How the results depend on the processing

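The number of receptors with an unadjusted p under 0.05 in limma was 1. It was 2 with no FPKM limit, 2 with a limit of 0.1, 0 with quantile normalization and 4 without a trended prior. Those 4 were Tlr1, Tlr2, Tlr4 and Tlr7. Of them, Tlr1, Tlr2 and Tlr7 had passed the FPKM limit only through the mice labelled Sox4-MKO, so being high there let them enter the fit. Of all genes tested, 7.95% were called higher, and 5.9%, 6.77%, 7.35% and 8.53% in the same order of settings. The count over all genes was 2090 and ran from 849 (without Sox4f/f mouse 1) and 1070 (without Sox4f/f mouse 2) to 2394 with a library left out. Lower genes made up 51.0% of calls, 36.1% after rescaling without mitochondrially encoded genes and Ucp1 and 34.9% without mouse 2 labelled Sox4-MKO. The count at an adjusted p under 0.05 was 0, and 0 to 5 with a library left out. Calls in the pathway lists were 7, from 4 to 7 with a library left out and 6 to 9 in the other alternatives. Calls in the marker lists were 31, from 15 to 28 with a library left out and 28 to 33 in the others. Both were lowest without Sox4f/f mouse 1. With all libraries kept, 51 genes of the pathway lists and 51 of the marker lists were tested. The 7 and 31 calls count both directions, as do the 2090 calls among all 12877 genes, of which 7.95% were called higher and 8.28% lower. The share called in the pathway lists was no higher than that of all genes, whereas the share in the marker lists was higher. Tlr3 turned to -0.081 with quantile normalization, -0.26 to 0.31 with a library left out (-0.02 without Sox4f/f mouse 2, -0.26 without mouse 2 labelled Sox4-MKO), Tlr6 to -0.021 with quantile normalization and -0.20 without Sox4f/f mouse 2 (0.32 without mouse 1), and Tlr8 to -0.18 without Sox4f/f mouse 1 (1.01 without mouse 2). Relative to macrophage markers, Tlr2 and Tlr7 turned to 0.063 and 0.14 with a pseudocount of 0.1. The causes were not tested. The other 7 receptors kept a log2 fold change above 0 in every alternative that covered them. Tlr1 had no estimate without mouse 2 labelled Sox4-MKO, because it did not pass the FPKM limit there. Deviations of mice with the same number correlated at r = -0.012 across genes, so no pairing by number was seen. With 2 mice per genotype this cannot exclude a pairing. A replicate block gave 1 receptor, 1908 genes and 0 at an adjusted p under 0.05. Tlr1, Tlr6, Tlr9 and Tlr13 rest on under 60 estimated fragments in every library, and Tlr2, Tlr7 and Tlr8 on under 40 in at least 1 Sox4f/f library.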

Other observations

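The qPCR primers listed in the supplement for Tlr1 and Tlr4 were searched among 141767 GENCODE M21 transcripts, a check chosen after the values were seen. Both primers for Tlr1 matched Tlr1 exactly, with an amplicon of 153 bases, and neither matched Tlr6. The pair listed for Tlr4 matched none of the 4 Tlr4 transcripts, where the best ungapped placements had 7 mismatches for the forward primer and 5 for the reverse primer, out of 20 bases each. It matched Tril exactly, with an amplicon of 267 bases.
Listed for Tlr4, forward: agctcctgaccttggtcttg
Listed for Tlr4, reverse: cgcaggggaactcaatgagg
Tril, at chr6:53815468-53820830 on the minus strand (GRCm38), encodes a protein that interacts with TLR4. In these libraries Tril read 1.43 and 1.19 FPKM in Sox4f/f and 1.51 and 1.94 FPKM in those labelled Sox4-MKO, with a log2 fold change of 0.23 (SE 0.23, limma with Benjamini-Hochberg adjusted p = 0.629). The Tlr4 values of the sequencing do not depend on these primers.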
